A study of Mus musculus with 8 samples.

Results

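The cyclins, cyclin-dependent kinases and inhibitors that govern entry into S phase were examined in B cells on their way into the germinal center (GC). The group holds 10 genes, chosen by symbol from the 24259 gene symbols of the count table: Ccnd2, Ccnd3, Cdk4, Cdk6, Ccne1, Ccne2, Cdkn1a, Cdkn1b, Cdkn2c and Rb1. All 10 were found in the table, and all 10 passed the filter on low counts that left 12744 genes to be tested. The cells were NP-binding, IgD-low, B220-positive cells of C57BL/6 background, sorted from lymph nodes 3 days after immunization with NP-OVA (the hapten NP coupled to ovalbumin). Recipients were CD45.1 Sap-/- mice, whose own T cells cannot support GCs, and received ovalbumin-specific OT-II T cells before immunization. In the HET group (4 libraries) the transferred T cells were CD4-Cre x Bcl6fl/+ and so had a floxed copy of Bcl6, while those of the WT group (4 libraries) were CD4-Cre. CD4-Cre acts in T cells, and the sequenced B cells belonged to the recipients and carried no Bcl6 deletion in either group, so these libraries hold no targeted gene by which to check the labels. Cells from recipients of 1 group were pooled before 4 repeats of about 200 cells were sorted, so p-values measure only technical spread between repeats, and an effect of the group cannot be told apart from one of its pool.

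Progression from G1 into S phase is run by kinase complexes that act in turn. D-type cyclins, which are made in response to mitogenic and survival signals, bind CDK4 or CDK6 and begin to phosphorylate the retinoblastoma protein RB. RB then releases E2F transcription factors, cyclin E is made, and cyclin E with CDK2 completes the switch. Inhibitors of the INK4 class, such as p18, bind CDK4 and CDK6 directly, whereas p21 and p27 of the CIP/KIP class bind complexes of cyclin and kinase. In B cells, cyclin D2 is known as the D-type cyclin induced by antigen receptor and CD40 signals, and cyclin D3 as the one needed for the expansion of GC B cells.

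Libraries held 6652386 to 12559189 counts, and 3 counts corresponded to between 0.241 and 0.455 CPM (counts per 1000000, after TMM scaling). Defining B cell genes were abundant, with Cd79a between 3209 and 3999 CPM and Cd74 between 10785 and 15157 CPM, whereas Cd4 had between 0 and 0.758 CPM. Cd4 did not stand for all T cell markers. Lck had between 92.4 and 172 CPM, Cd8b1 between 12.2 and 123 CPM, Cd3d between 2.65 and 46.4 CPM and Icos between 0 and 14.9 CPM. Libraries nevertheless differed in more than their group name. All 10 B cell markers had a negative log2 fold change (HET minus WT), 8 of them at an unadjusted p under 0.05 in edgeR. Over all genes tested, 3.88% were lower and 3.34% higher in HET at that p. Of the B cell markers, 0 passed an adjusted p of 0.05 in edgeR and 2 in DESeq2 (Cd22 and Cd74). Their summed level was 22029 to 23316 CPM in HET and 25247 to 28022 CPM in WT. All 11 T cell markers tested had a positive log2 fold change, 0 of them at an unadjusted p under 0.05 in edgeR. Their summed level over 12 markers was 305 to 591 CPM in HET and 178 to 424 CPM in WT. Markers of antibody-secreting cells summed to 2159 CPM in HET replicate 1, of which 1576 CPM was Jchain. The remaining HET libraries had 301 to 578 CPM and WT had 251 to 564 CPM. Of 8 such markers 7 were tested, 5 with a positive and 2 with a negative log2 fold change and 0 at an unadjusted p under 0.05. Of 8 GC B cell markers 6 were tested, and those at that p included Fas and S1pr2, higher in HET, and Bcl6, lower in HET. Of 10 myeloid markers 4 were tested, all with a negative log2 fold change (median -1.35), 1 of them (Csf1r) at an unadjusted p under 0.05. Summed over 9 of the markers, the level was 10.8 to 26.9 CPM in HET and 20.4 to 422 CPM in WT, where WT replicate 2 held 399 CPM of Lyz2. The part of these differences in the values of the G1 genes was not tested. In bulk RNA, a change in the number of cells of a kind and a change in RNA per cell cannot be told apart.

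First, the levels of the 10 genes were compared with one another, on the scale of CPM per kilobase of exon (GENCODE M21). Cdk4 stood highest, at 94.98 ± 14.6 with HET and 83.0 ± 5.48 with WT help (SD, n = 4 each). Next came the D-type cyclins, with 35.4 ± 4.02 and 28.3 ± 4.40 for Ccnd2 and 24.0 ± 4.92 and 18.3 ± 3.12 for Ccnd3 in HET and WT, respectively (SD, n = 4 each). The level of Cdk4 did not overlap that of any other member in any library. Ccne1 (mean of the 8 libraries 12.7) and Cdk6 (7.92) followed by mean, with ranges that overlapped those of their neighbours. Ccnd3 exceeded Ccne1 in 7 of 8 libraries, and Ccne1 exceeded Cdk6 in 7 of 8. Cdk6 exceeded Cdkn2c in 2 of 4 HET and 4 of 4 WT libraries. Below them by mean lay Cdkn2c, Cdkn1b, Ccne2 and Rb1, with overlapping ranges and means over all libraries of 5.60, 5.28, 4.53 and 4.23. That order held in neither group. The HET means were 7.20 for Cdkn2c, 5.58 for Ccne2, 4.92 for Cdkn1b and 4.003 for Rb1, and the WT means were 5.65 for Cdkn1b, 4.46 for Rb1, 3.99 for Cdkn2c and 3.47 for Ccne2. Cdkn1b exceeded Ccne2 in 0 of 4 HET and 4 of 4 WT libraries, while Cdkn2c exceeded Cdkn1b, and Ccne2 exceeded Rb1, in 3 of 4 HET and 1 of 4 WT libraries. Cdkn1a was lowest, with a mean of 0.748, below Rb1 in 8 of 8 libraries.

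**Figure D1:**
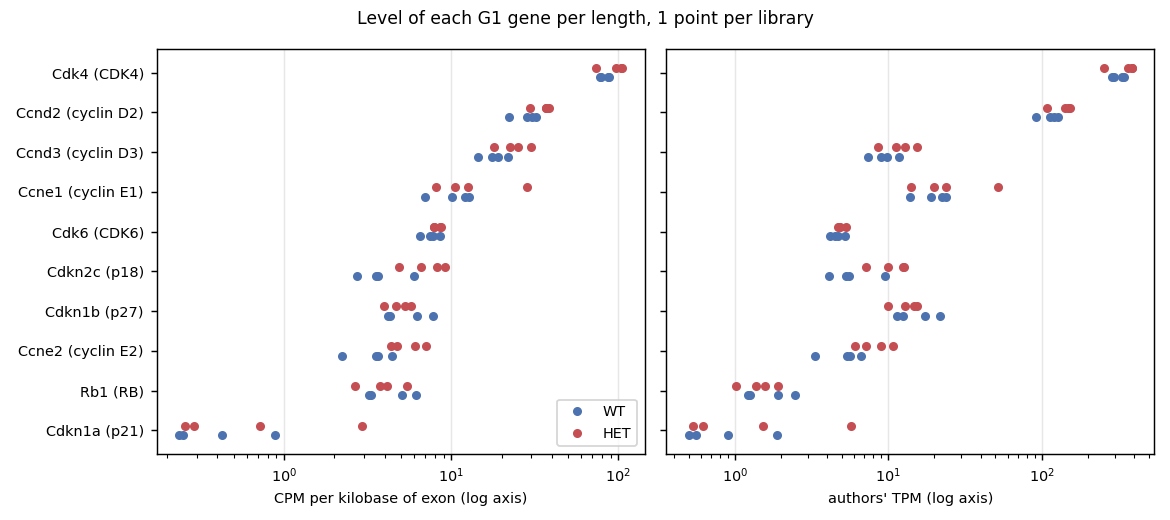
Level of each of the 10 G1 genes in each library (1 point per library, HET red, WT blue), as CPM per kilobase of exon on the left and as the authors' TPM on the right, both on log axes. Cdk4 is highest on both scales. Cdkn1a has the lowest mean on both, but on the right its mean of 1.54 TPM is close to the 1.59 TPM of Rb1, which is higher in 5 of 8 libraries. Ccnd3, Cdk6 and Rb1 sit lower on the right.

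The length used for a gene moved part of this order. With the longest annotated transcript in place of all exons, Ccnd2 and Ccnd3 were level (47.4 and 48.1 CPM per kilobase, means of 8 libraries), and Ccnd2 exceeded Ccnd3 in 5 of 8 libraries instead of 8 of 8. The authors' TPM placed Ccnd3 far lower, at 10.8 against 126 TPM for Ccnd2. The gene length implied by count and TPM followed the genomic span of a gene, introns included (Spearman correlation 0.952 across 7758 genes, which are not independent replicates), more closely than its exon length (0.602). Relative to Cdk4, the implied length of Ccnd3 was 19.8, its exon length 2.70 and its span 21.6. For Cdk6 these ratios were 26.5, 4.31 and 43.2, and for Rb1 18.4, 1.85 and 32.4. Single members departed from the span: for Ccnd2 the ratios were 2.73, 2.90 and 6.16, nearer to exon length. For Cdkn1b (1.91, 1.40 and 1.17) and Cdkn2c (2.06, 0.827 and 1.44) the implied length was above both. The authors' TPM was therefore not used to compare levels between genes, and served only to compare the same gene between groups.

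The D-type cyclins are the members through which outside signals reach the cycle. Ccnd2, encoding cyclin D2 (chromosome 6, 127125162 to 127152193 on GRCm38, minus strand), stood at 277, 348, 359.9 and 348 CPM in HET replicates 1 to 4 and at 288, 302, 208 and 269 CPM in WT replicates 1 to 4. HET replicate 1 lay among the WT values, and the other HET libraries lay above all of WT. The means were 333 ± 37.8 CPM with HET and 267 ± 41.4 CPM with WT help (SD, n = 4 each), a ratio of 1.25 (95% interval 1.04 to 1.504). The log2 fold change of 0.32 ± 0.12 (SE) did not pass the threshold (edgeR adjusted p = 0.604, unadjusted p = 0.0224).

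Ccnd3, encoding cyclin D3 (chromosome 17, 47505051 to 47599691, plus strand), stood at 159, 222, 262 and 198 CPM in HET and at 128, 168, 193 and 154 CPM in WT. The groups overlapped, with HET replicate 1 again at the WT level. The means of 210.2 ± 43.1 CPM with HET and 161 ± 27.4 CPM with WT help (SD, n = 4 each) gave a ratio of 1.31 (95% interval 1.03 to 1.65) and a log2 fold change of 0.39 ± 0.16 (SE) (edgeR adjusted p = 0.616, unadjusted p = 0.0276). Without HET replicate 1 the log2 fold change was 0.41 for Ccnd2 and 0.50 for Ccnd3 (edgeR adjusted p = 0.388 and 0.389). Other libraries lowered both: it was 0.23 for Ccnd2 without WT replicate 3, and 0.27 and 0.29 for Ccnd3 without HET replicate 3 and without WT replicate 1. Over the leave-outs, the unadjusted p stayed under 0.05 in 6 of 8 for Ccnd2 and in 4 of 8 for Ccnd3. Per kilobase of exon, Ccnd2 exceeded Ccnd3 by a factor of 1.502 ± 0.167 with HET and 1.60 ± 0.452 with WT help (SD, n = 4 each). No test of this factor between the groups was made. In WT this factor ran from 1.01 in replicate 3, which had the least Ccnd2 and the most Ccnd3 of its group, to 2.10 in replicate 1.

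The kinases that these cyclins bind were expressed at unequal levels. Cdk4 (chromosome 10, 127063534 to 127067920, plus strand) stood at 239.7, 336, 315 and 343 CPM in HET and at 252, 287, 283 and 257 CPM in WT. The lowest of all 8 values was that of HET replicate 1, and the other HET libraries lay above all of WT. Its means were 309 ± 47.5 CPM with HET and 269.6 ± 17.8 CPM with WT help (SD, n = 4 each), a ratio of 1.14 whose 95% interval ran from 0.962 to 1.36 (log2 fold change 0.19, SE 0.12, edgeR adjusted p = 0.778). Without HET replicate 1 the log2 fold change was 0.30 (edgeR adjusted p = 0.424, unadjusted p = 0.00703), more than 1.5 times the value with all libraries. Leaving out any other library gave 0.14 (without HET replicate 4) to 0.23, and the unadjusted p was under 0.05 in 1 of the 8 leave-outs.

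Cdk6 (chromosome 5, 3341485 to 3531008, plus strand), the second kinase of this class, ranged from 91.4 to 121 CPM over the 8 libraries. It stood at 115 ± 5.44 CPM with HET and 106 ± 11.6 CPM with WT help (SD, n = 4 each), a ratio of 1.09 (95% interval 0.910 to 1.298, edgeR adjusted p = 0.879). Per kilobase of exon, Cdk4 exceeded Cdk6 by a factor of 11.6 ± 2.03 with HET and 11.1 ± 1.74 with WT help (SD, n = 4 each), and this factor lay between 8.66 and 13.4 in all libraries.

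The sequence before the start of Cdk4 is shown because this gene stood above the other members in every library per kilobase of exon (in CPM, Ccnd2 was above it in 7 of 8) and because it is a textbook target of MYC, which binds the E-box CACGTG. It was read from RefSeq promoters on GRCm38.p6 (chr10:127063285-127063533, plus strand, ending 2 bases before the RefSeq start), with each E-box in capitals.
Cdk4: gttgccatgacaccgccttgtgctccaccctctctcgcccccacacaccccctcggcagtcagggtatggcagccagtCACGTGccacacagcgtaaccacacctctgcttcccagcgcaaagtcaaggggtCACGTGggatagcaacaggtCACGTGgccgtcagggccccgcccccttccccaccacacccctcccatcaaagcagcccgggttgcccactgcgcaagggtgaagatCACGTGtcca
The 4 E-boxes begin 172, 118, 98 and 11 bases before the start. At least 1 CACGTG, which reads the same on both strands, was present in the 250 bases before the start in 6.02% of 32851 RefSeq promoters, and at least 4 were present in 7 of them (0.0213%). Of the 10 genes, 7 had an entry (Ccnd3, Cdk4, Cdk6, Ccne1, Cdkn1a, Cdkn1b and Cdkn2c), and apart from Cdk4 only Cdk6 held the motif, in 1 copy that begins 220 bases before its start. The E2F letters TTTCGCGC, TTTGGCGC, TTTCCCGC and TTTGCCGC, searched on both strands, were found in none of the entries of these 7 genes and in 1.86% of all promoters. The forkhead letters TGTTTAC were found once, 243 bases before the start of Ccnd3 (3.17% of all promoters), and the CHR letters TTTGAA in none of the 7 (5252 of all promoters). No match says only that these letters are not in these windows, and a match is not evidence of binding. Myc itself stood at 241 ± 32.0 CPM with HET and 191 ± 53.7 CPM with WT help (SD, n = 4 each) (log2 fold change 0.33, SE 0.18, edgeR adjusted p = 0.740).

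Cyclin E acts after the D-type cyclins, with CDK2. Ccne1 (chromosome 7, 38097984 to 38107534, minus strand) stood at 21.6, 28.2, 33.4 and 75.5 CPM in HET and at 32.2, 26.9, 18.7 and 34.0 CPM in WT. Only HET replicate 4 lay above the WT range, at more than 2 times any other library. The log2 fold change of 0.50 ± 0.35 (SE) (95% interval of the ratio 0.846 to 2.36, edgeR adjusted p = 0.804) rested on that library: without HET replicate 4 it was -0.01 (edgeR adjusted p = 0.998).

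Ccne2 (chromosome 4, 11191351 to 11204779, plus strand) stood at 15.3, 24.7, 16.6 and 21.4 CPM in HET and at 12.7, 7.72, 12.5 and 15.6 CPM in WT. The groups overlapped by a narrow margin, between HET replicate 1 and WT replicate 4. The HET mean of 19.5 ± 4.36 CPM and the WT mean of 12.1 ± 3.25 CPM (SD, n = 4 each) gave a ratio of 1.61 (95% interval 1.02 to 2.52) and a log2 fold change of 0.68 ± 0.30 (SE) (edgeR adjusted p = 0.657, unadjusted p = 0.0407). With single libraries left out its log2 fold change lay between 0.52 and 0.83, and the unadjusted p was no longer under 0.05 in 5 of 8 cases, reaching 0.122 without HET replicate 2. Per kilobase of exon, Ccne1 exceeded Ccne2 in all 8 libraries, by a factor of 2.66 ± 1.40 with HET and 3.18 ± 1.09 with WT help (SD, n = 4 each).

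**Figure D2:**
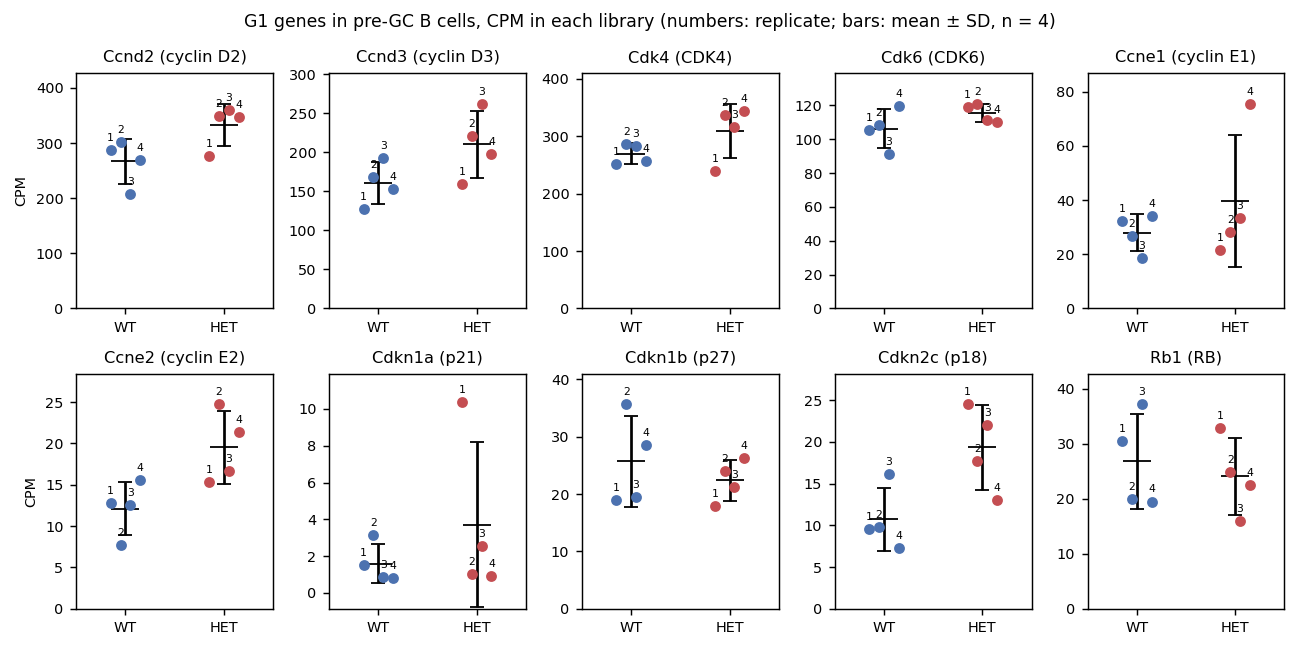
CPM of the 10 G1 genes in each library, with WT in blue, HET in red, the replicate number above each point, and the mean ± SD (n = 4) as bars. HET replicate 1 is the lowest HET library for 6 genes and the highest for Cdkn1a, Cdkn2c and Rb1, and the groups overlap in every panel.

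Among the inhibitors, Cdkn2c had the lowest p of the 10 genes. It encodes p18, an INK4 inhibitor of CDK4 and CDK6 known to restrain the cycle in differentiating B cells and plasma cells (chromosome 4, 109660876 to 109667189, minus strand). It stood at 24.5, 17.7, 22.0 and 13.0 CPM in HET and at 9.60, 9.85, 16.2 and 7.31 CPM in WT. The 3 highest values were HET libraries, and WT replicate 3 lay above HET replicate 4. The HET mean of 19.3 ± 5.04 CPM and the WT mean of 10.7 ± 3.79 CPM (SD, n = 4 each) gave a ratio of 1.81 (95% interval 1.11 to 2.95), and the log2 fold change of 0.85 ± 0.33 (SE) did not pass the threshold (edgeR adjusted p = 0.602, unadjusted p = 0.0211). HET replicate 1, with the highest summed level of antibody-secreting cell markers, was the highest library for Cdkn2c. HET replicate 4 and WT replicate 4, next for those markers (578 and 564 CPM), had the lowest Cdkn2c of their groups. Of these sums, Jchain made up 1576 CPM in HET replicate 1, 97.1 CPM in HET replicate 4 and 94.8 CPM in WT replicate 4. The part of antibody-secreting cells in the values of Cdkn2c was not tested. Without HET replicate 1 the log2 fold change was 0.72 (edgeR adjusted p = 0.653, unadjusted p = 0.0688). It was 0.71 without WT replicate 4 and 0.79 without HET replicate 3 (edgeR unadjusted p = 0.0577 and 0.0522). Over the leave-outs it lay between 0.71 and 1.12, and the unadjusted p was not under 0.05 in 3 of 8.

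Cdkn1b encodes p27, the CIP/KIP inhibitor known to hold resting lymphocytes out of the cycle (chromosome 6, 134920401 to 134925513, plus strand). It stood at 17.9, 24.1, 21.3 and 26.2 CPM in HET and at 19.0, 35.7, 19.6 and 28.6 CPM in WT. The WT group spanned a wider range than HET and enclosed all of it but HET replicate 1. The ratio was 0.869 with a 95% interval of 0.588 to 1.29 (log2 fold change -0.20, SE 0.26, edgeR adjusted p = 0.912). Without WT replicate 2 the log2 fold change was -0.0018.

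Cdkn1a encodes p21, the CIP/KIP inhibitor induced by p53 (chromosome 17, 29090976 to 29100727, plus strand), and was the rarest member. It had 129, 8, 17 and 6 counts in HET and 16, 31, 7 and 8 counts in WT, which correspond to 10.4, 1.04, 2.55 and 0.910 CPM and to 1.52, 3.15, 0.883 and 0.835 CPM. Outside HET replicate 1 the groups lay in the same range. The log2 fold change of 1.23 ± 0.84 (SE) (95% interval of the ratio 0.669 to 8.17, edgeR adjusted p = 0.801) turned to -0.09 without HET replicate 1. That library also held 1576 CPM of Jchain, against 0.505 to 97.1 CPM in the others. Jchain made up most of its summed 2159 CPM of antibody-secreting cell markers. Among the remaining markers, Irf4, Mzb1 and Derl3 were also highest in that library, whereas Xbp1, Prdm1, Sdc1 and Tnfrsf17 were each higher in another. Of 18 genes listed as p53 and its targets, 15 were tested, 8 had a positive and 7 a negative log2 fold change, and the median was 0.02, with 0 past an adjusted p of 0.05 in edgeR and 0 in DESeq2. In that list 1 gene, Fas (the death receptor, also a GC marker), had an unadjusted p under 0.05, with 14.3 ± 3.02 CPM with HET and 6.77 ± 0.683 CPM with WT help (SD, n = 4 each).

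Rb1 encodes RB, the pocket protein on which these kinases act (chromosome 14, 73183673 to 73325822, minus strand). It stood at 33.0, 24.9, 16.03 and 22.4 CPM in HET and at 30.6, 20.0, 37.2 and 19.5 CPM in WT. No library order set the groups apart. The ratio was 0.900 with a 95% interval of 0.587 to 1.38 (log2 fold change -0.15, SE 0.29, edgeR adjusted p = 0.948), and its sign turned without HET replicate 3 or without WT replicate 3.

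Counted together, 0 of the 10 genes passed an adjusted p of 0.05 in edgeR, 0 passed in DESeq2. The background was 3 genes of all tested in edgeR (0.0235%) and 95 in DESeq2 (0.687% of 13834 with an adjusted p). At an unadjusted p under 0.05 in edgeR there were 4, Cdkn2c, Ccnd2, Ccnd3 and Ccne2, all with a higher mean in HET. DESeq2 gave 4 as well, against a share of 5.65% of 24064 genes. That set was not filtered on low counts, so this share is not like for like with the edgeR share. Over all genes tested in edgeR the share was 7.22% in both directions 3.34% for genes higher in HET and 3.88% for genes lower in HET. The groups overlapped for all 10 genes, whereas they did not overlap for 4.61% of all genes tested (1.99% with all HET libraries above WT and 2.62% with all below). The log2 fold change was positive for 8 of 10 members, with a median of 0.35, and for 49.9% of all genes, with a median of -0.0014. The count of 4 moved by over 1.5 times when single libraries were left out: it was 1 without HET replicate 3 and 2 without HET replicate 2, WT replicate 1, WT replicate 3 or WT replicate 4. Summed over the 10 genes, the level was 1096 ± 119 CPM with HET and 908 ± 42.5 CPM with WT help (SD, n = 4 each), and HET replicate 1, with 918 CPM, lay within the WT range of 878 to 969 CPM.

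**Figure D3:**
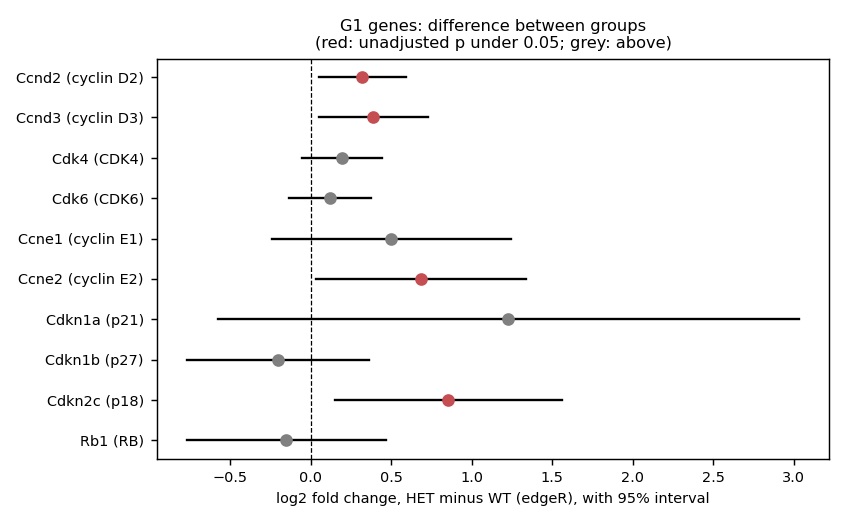
Log2 fold change (HET minus WT, edgeR) of each G1 gene with its 95% interval, red where the unadjusted p was under 0.05. The intervals of the 4 red genes lie wholly above 0 on the log2 scale, with lower ends from 0.034 (Ccne2) to 0.149 (Cdkn2c). The interval of Cdkn1a is the widest.

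Reads of some members could be shared with other genes. SMART-Seq2 libraries do not mark strand, and 7 of the 10 genes have exons that overlap exons of a gene on the opposite strand, over 19.7% of exon bases for Cdk4 (with Tspan31), 17.4% for Ccne2 (with Ints8), 14.9% for Rb1 (with Rcbtb2 and Lpar6) and at most 7.87% for Ccnd2, Ccnd3, Cdk6 and Cdkn1a. Ccne1, Cdkn1b and Cdkn2c have no such overlap. How the counting treated these bases is not given in the sources used here, and the values of the 7 genes are uncertain to that extent.

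Next, the rest of the machinery around G1 was described with a list of 29 other cyclins, kinases, inhibitors, pocket proteins, E2F factors and degradation factors. Of 26 tested, 19 had a positive and 7 a negative log2 fold change (median 0.19), and 0 passed an adjusted p of 0.05 in edgeR and 1 (Cks1b) in DESeq2. At an unadjusted p under 0.05 in edgeR there were 4 higher and 2 lower in HET (3.34% and 3.88% of all genes tested). Cks1b, the CDK subunit with which SKP2 marks p27 for destruction, had the lowest p. It stood at 83.7, 114.5, 87.2 and 90.8 CPM in HET and at 65.1, 64.4, 45.4 and 40.8 CPM in WT, and all HET libraries lay above all of WT (log2 fold change 0.80, SE 0.18, edgeR adjusted p = 0.233). Of the ubiquitin ligase parts at an unadjusted p under 0.05, Skp1a, the adaptor, stood at 129.5 ± 16.7 and 105 ± 15.1 CPM, and Cul1, the scaffold, at 73.6 ± 4.87 and 94.7 ± 7.09 CPM in HET and WT, respectively (SD, n = 4 each). The adjusted p in edgeR was 0.672 for Skp1a and 0.571 for Cul1.

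E2f8, an atypical E2F that represses E2F target genes, stood at 13.9 ± 5.25 CPM with HET and 4.42 ± 3.73 CPM with WT help (SD, n = 4 each). Rbl2, which encodes p130, the pocket protein of resting cells, stood at 24.4 ± 5.54 CPM with HET and 43.9 ± 19.2 CPM with WT help (SD, n = 4 each). The wide WT range of Rbl2, from 25.7 to 69.3 CPM, overlapped HET. Ccnd1, a D-type cyclin not usually made by normal B cells, was scarce. It stood at 12.5, 12.3, 3.00 and 2.12 CPM in HET and at 0.285, 0, 1.77 and 3.86 CPM in WT, and the groups overlapped. The adjusted p in edgeR was 0.579 for E2f8, 0.575 for Rbl2 and 0.636 for Ccnd1. Cdk2, the kinase partner of cyclin E, stood at 66.9 ± 8.999 CPM with HET and 79.6 ± 11.9 CPM with WT help (SD, n = 4 each), with overlap (log2 fold change -0.25, SE 0.16, edgeR adjusted p = 0.790).

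Genes downstream of the G1 switch were described with 36 E2F target genes of S phase and 24 genes of G2 and mitosis. Of the E2F targets, 34 of 36 had a positive log2 fold change, with a median of 0.41. At an unadjusted p under 0.05 in edgeR there were 11 higher and 0 lower in HET (3.34% and 3.88% of all genes tested). Of the genes of G2 and mitosis, 23 of 24 had a positive log2 fold change, with a median of 0.75, and 9 were higher at that p and 0 lower. Their summed level overlapped between the groups, at 792 to 1288 CPM in HET and 283 to 801 CPM in WT. The lowest was WT replicate 4, at 283 CPM, while WT replicates 1 to 3 held 753, 801 and 706 CPM. The part of that library in the median was not tested. In both lists 0 genes passed an adjusted p of 0.05 in edgeR, whereas DESeq2 passed Dut and Rrm2 in the first and Ccnb2 and Foxm1 in the second, all higher in HET, among the 95 genes that DESeq2 passed in all. Among the E2F targets, Dut (dUTPase, which keeps uracil out of DNA) stood at 127 ± 14.7 and 75.6 ± 18.2 CPM, Rrm2 (ribonucleotide reductase) at 168 ± 36.1 and 90.6 ± 36.5 CPM, Mybl2 (B-MYB) at 50.5 ± 19.6 and 15.9 ± 13.5 CPM, and Rfc4 (a clamp loader subunit) at 38.9 ± 8.04 and 26.0 ± 6.21 CPM in HET and WT, respectively (SD, n = 4 each). Dut did not overlap between the groups, and Rrm2, Mybl2 and Rfc4 did, through HET replicate 1 and WT replicate 1. In the later list, Foxm1, a transcription factor of the G2 program, stood at 9.58 ± 2.71 CPM with HET and 2.86 ± 1.20 CPM with WT help (SD, n = 4 each), and Ccnb2 (cyclin B2) at 65.1 ± 24.9 and 22.6 ± 3.13 CPM, both without overlap between the groups. Cenpe, a kinetochore motor, stood at 32.3 ± 5.95 and 14.2 ± 7.54 CPM, and Cdc20, an activator of the anaphase-promoting complex, at 89.5 ± 18.7 and 50.7 ± 18.4 CPM (SD, n = 4 each). The lowest adjusted p in edgeR was 0.233 among the E2F targets and 0.0870 in the later list (Ccnb2).

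**Figure D4:**
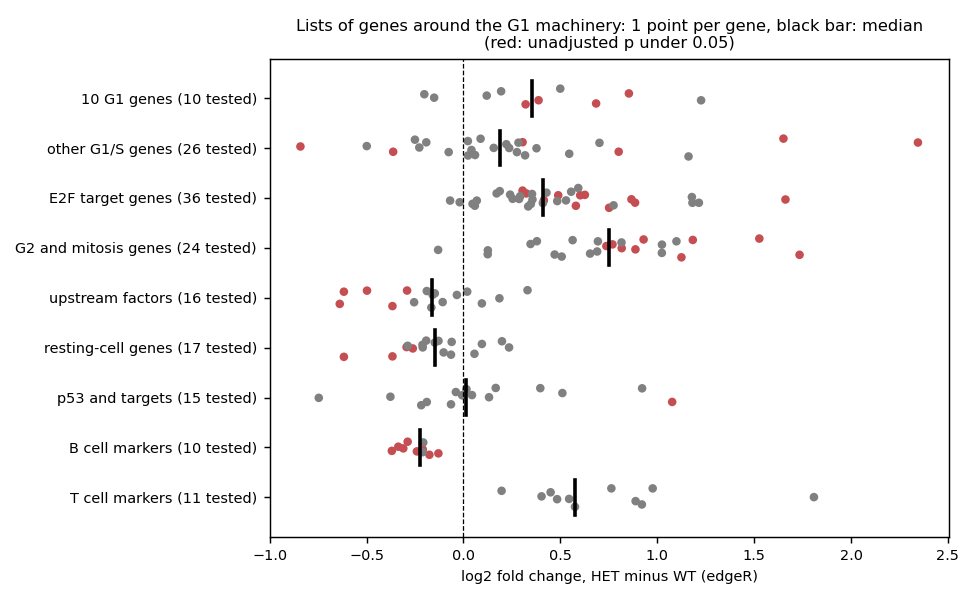
Log2 fold change (HET minus WT, edgeR) of every tested gene of the 10 G1 genes and of lists around them, 1 point per gene, red at an unadjusted p under 0.05, with the median as a black bar. Medians are 0.35 for the G1 genes, 0.41 for E2F targets, 0.75 for G2 and mitosis genes and -0.15 for resting-cell genes, and all 10 B cell markers lie below 0.

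The libraries were then set side by side by their RNA of E2F targets. The summed level of the 36 targets was 2133, 2700, 2734 and 3144 CPM in HET replicates 1 to 4 and 2402, 2037, 1797 and 1770 CPM in WT replicates 1 to 4. HET replicates 2, 3 and 4 were the 3 highest libraries for the targets, for Ccnd2, for Cdk4 and for Ccnd3, and HET replicate 1 lay within the WT range for the targets as it did for Ccnd2 and Ccnd3. WT replicate 1, the highest of WT for the targets, had the lowest Ccnd3 of all 8 libraries and the lowest Cdk4 of WT. Cdkn1b and Rb1 did not follow the order of the targets either, and their highest values were in WT replicates 2 and 3. All 8 points share library and depth between the measures, and no test was made of the relation.

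**Figure D5:**
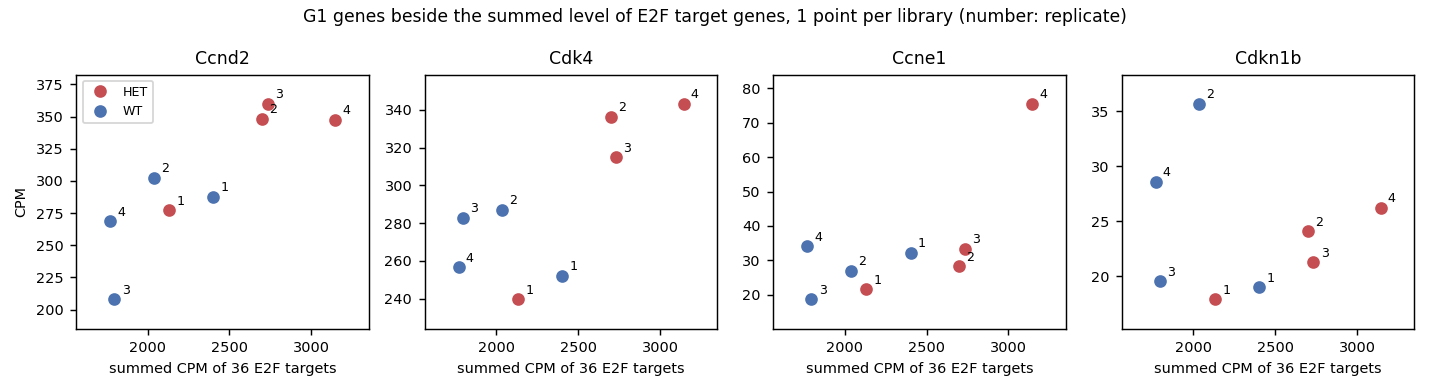
CPM of Ccnd2, Cdk4, Ccne1 and Cdkn1b (vertical axes, not starting at 0) against the summed CPM of 36 E2F target genes (horizontal axes), 1 point per library with its replicate number, HET red and WT blue. HET replicates 2, 3 and 4 lie at the upper right for Ccnd2 and Cdk4, and no such order is seen for Cdkn1b.

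Finally, factors known to act on the genes of D-type cyclins and CDK inhibitors were described. Of 16, 12 had a negative log2 fold change (median -0.16). At an unadjusted p under 0.05 in edgeR there were 5 lower and 0 higher in HET (3.88% and 3.34% of all genes tested). Klf2, a factor that keeps lymphocytes at rest, stood at 190.4, 140.2, 133 and 186 CPM in HET and at 300.4, 219, 253 and 226 CPM in WT, without overlap (log2 fold change -0.62, SE 0.14, edgeR adjusted p = 0.234). Zbtb17, which encodes MIZ-1, the partner through which MYC represses CDK inhibitor genes, stood at 26.3 ± 4.10 and 41.0 ± 6.92 CPM, Bach2 at 105 ± 13.9 and 136 ± 19.1 CPM, and Bcl6 at 45.6 ± 10.2 and 64.2 ± 15.4 CPM in HET and WT, respectively (SD, n = 4 each). Foxo1 and Foxo3, which are known to drive Cdkn1b, had log2 fold changes of -0.15 and 0.09 (edgeR adjusted p = 0.912 and 0.972). Of 17 genes known from resting lymphocytes, 13 had a negative log2 fold change (median -0.15). At an unadjusted p under 0.05 in edgeR, 4 were lower and 0 higher in HET (3.88% and 3.34% of all genes tested). Beside Klf2 and Bach2, which stand in both lists, the 4 lower genes included Btg1, an antiproliferative factor, at 1293 ± 138 and 1585 ± 119 CPM in HET and WT, respectively (SD, n = 4 each). In both lists 0 genes passed an adjusted p of 0.05 in edgeR, and 1 (Klf2) passed in DESeq2.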

How the data were processed

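SMART-Seq2 libraries of pre-GC B cells (4 HET, 4 WT) were used. Per the labels and methods, reads were aligned to GRCm38/mm10 with HISAT2 2.2.1 and assigned to genes with HTSeq-count. Strand setting, annotation release and the handling of reads with several matches are not given in the sources used here. The authors deposited raw counts per gene for each library, and the authors also deposited TPM values per gene. Across genes, the lengths implied by these TPM values followed genomic spans more closely than exon lengths. Groups came from the sample labels.

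Counts were tested with edgeR 4.0.16 in R 4.3.3 (filterByExpr, TMM scaling, robust quasi-likelihood F-test, Benjamini-Hochberg adjustment over 12744 genes, threshold 0.05), with log2 fold changes as HET minus WT. SE was taken as the absolute log2 fold change over sqrt(F), and 95% intervals used the t distribution of the moderated fit. SMART-Seq2 carries no molecular identifiers, so intervals and floors (3 counts) cover counting error only where they rest on counts of 1 library. Total counts were 6652386 to 12559189 per library, and genes tested held 99.7% of them. Levels between genes were CPM per kilobase of GENCODE M21 exon (GRCm38), matched by symbol for 23530 genes. The wrappers were tested on simulated counts. Alternatives were DESeq2 1.42.0, RLE size factors, no filter, a replicate block, omission of immunoglobulin genes, limma 3.58.1 on log2(TPM + pseudocount) and leaving out each library.

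The 10 members and all lists were chosen with earlier results of these data known. Named were all members and, from each list except markers, genes past the threshold and up to 4 genes a direction with the lowest unadjusted p under 0.05. For Ccnd2 and Ccnd3, the 4 genes of most similar profile were named by Pearson r among genes averaging 4 or more in log2 CPM. Myc, Cdk2, Foxo1, Foxo3 and the marker genes were named after their values were seen. Some genes that this rule would name are not reported here.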

Additional observations from a re-analysis of the deposited data

Results flagged for a closer look

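In the 4 HET libraries, Ccnd2 stood at 277 CPM in replicate 1 and between 348 and 359.9 CPM in the others, a gap of 0.851 of the range of the group above the critical value of Dixon's test for 4 values. This was the only library to stand apart among the 20 sets of 4 values examined (10 genes in 2 groups), and chance flags about 5% of such sets. The same library had the highest Cdkn1a of its group (10.4 CPM), whose gap of 0.827 fell just short of that value. It also had the highest summed level of antibody-secreting cell markers (2159 CPM, of which 1576 CPM was Jchain). The part of those cells in either value was not tested.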

How the results depend on the processing

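The 10 genes had 160 values under alternatives, of which 156 kept their direction and their side of the threshold, 4 turned and 0 passed it. The 4 were Ccne1 without HET replicate 4 (-0.010, range over single libraries left out -0.010 to 0.71), Cdkn1a without HET replicate 1 (-0.089, range -0.089 to 1.78), and Rb1 without HET replicate 3 (0.00096) and without WT replicate 3 (0.053, range -0.34 to 0.053), none of which had passed the threshold. The number of members past it was 0 under every alternative listed. The number at an unadjusted p under 0.05 was 4 in edgeR, 2 under limma on log2(TPM + 1), 2 on log2(TPM + 0.1), 2 with a mean TPM of at least 1, and 1 to 4 when single libraries were left out. Over all genes, 3 passed in edgeR, 95 in DESeq2, 38 without a filter on low counts, 0 under limma on log2(TPM + 1), 1 on log2(TPM + 0.1), 0 with a mean TPM of at least 1, and 1 to 6 when single libraries were left out (1 without any HET library or WT replicate 3, 6 without WT replicate 1). The cause of these differences was not tested.

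Same-numbered HET and WT libraries shared only a number: correlations of their deviations from the group means ran from -0.0530 to 0.0080, and 1 of 8 libraries correlated best with its own number. With the replicate block, 0 genes passed the threshold and 3 members had an unadjusted p under 0.05.

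Depth limited Cdkn1a most, with 6 to 31 counts in 7 libraries. A member that missed the threshold is not shown to be equal in both groups, and differences the size of those of Ccnd2 or Cdk4 were close to the spread of 4 sorted repeats of 1 pool.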

Other observations

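Ccnd2 and Ccnd3 had a Pearson r of log2 CPM of 0.45 with one another across the 8 libraries. The genes of most similar profile were listed for each, and whether these lists differ more than those of other genes was not tested. Among 7086 genes averaging 4 or more in log2 CPM, the profiles most like that of Ccnd2 were those of Nop16 (Pearson r of log2 CPM 0.979), a nucleolar protein of ribosome assembly, Mrpl12 (0.975), a protein of the mitochondrial ribosome, Epb41l4aos (0.965) and Pfn1 (0.963), the actin-binding protein profilin. For Ccnd3 they were Ercc6l2 (0.956), Golga5 (0.951), a golgin, Naa40 (0.931), an N-terminal acetyltransferase, and Vps50 (0.925), a subunit of a complex of endosome recycling. An r over 0.7 with Ccnd2 was found for 8.44% of these genes and with Ccnd3 for 2.79%. All values come from the same 8 libraries and share their depth and composition, so these are descriptions of 8 points, chosen as the highest of many.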
